A study of Mus musculus with 16 samples.

Results

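The receptor kinase RET, 3 of its GPI-anchored co-receptors, 3 ligands of the GDNF family, and endothelin-3 with its receptor were followed in nuclei of the mouse colon. The 9 genes, Ret, Gfra1, Gfra2, Gfra3, Gdnf, Nrtn, Artn, Ednrb and Edn3, were taken by symbol, and each matched 1 of the 51912 Ensembl identifiers of the count table. The labels give 4 groups of 4 libraries from the longitudinal muscle and adherent myenteric plexus of the colon of specific pathogen-free C57BL/6 mice. Every group came from mice that carried AAV9-CaMKII-EGFPKASH, a virus that tags the nuclear envelope with EGFP under a CaMKII promoter, given by vein 5 weeks earlier. EGFP-positive nuclei were collected as neuronal and EGFP-negative nuclei as non-neuronal, so that neurons the virus did not reach or in which the promoter was silent would fall among the non-neuronal nuclei. Neuronal control and non-neuronal control libraries came from mice given corn oil, and neuronal agonist and non-neuronal agonist libraries from mice given 3-methylcholanthrene, a ligand of the aryl hydrocarbon receptor (AhR), 14 hours before the nuclei were isolated. The sources used here give no dose, no age, and no word on whether each library came from its own mouse or from a pool, so p-values measure only the spread between these libraries.

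GDNF, neurturin and artemin each bind a GFRα co-receptor on the cell surface (GFRα1, GFRα2 and GFRα3 by preference), and the complex activates RET, a receptor tyrosine kinase that signals through RAS, phosphoinositide 3-kinase and phospholipase C. In the gut, GDNF is made by smooth muscle and other mesenchymal cells and drives the migration, division and survival of the neural crest cells that become enteric neurons and glia, and RET persists in neurons after birth. Endothelin-3 acts on the G protein-coupled receptor EDNRB of the same precursors and keeps them undifferentiated while they colonise the colon. Loss of function in RET, GDNF, EDN3 or EDNRB is known as a cause of Hirschsprung disease, in which the distal bowel lacks ganglia.

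Total counts ranged from 2663738 to 4902303 per library. Levels are in CPM (counts scaled to a common library size) after trimmed mean of M-values (TMM) scaling over all 16 libraries, and levels of different genes are compared only as CPM per kilobase of exon. A count of 0 allows a level of up to 0.657 to 1.35 CPM, depending on the library, if 3 counts are taken as the limit, and this covers counting error only. Neuron markers followed the labels of the sorted populations: the 10 neuron markers summed to 3158 to 5402 CPM in the 8 neuronal libraries and 127 to 502 CPM in the 8 non-neuronal libraries. The level of Elavl4 was 376 ± 55.5 CPM (SD, n = 4) in neuronal and 27.4 ± 13.8 CPM in non-neuronal libraries of corn oil mice, and that of Myh11 of smooth muscle 223 ± 154 and 3746 ± 2072 CPM. Non-neuronal control libraries also held epithelium markers, 7 genes, at 1518 to 14350 CPM, beside 4058 to 12887 CPM of smooth muscle markers, 8 genes. The 4 markers of interstitial cells of Cajal overlapped as a sum, at 354 to 520 CPM in neuronal and 224 to 575 CPM in non-neuronal libraries, but singly they diverged. In corn oil mice edgeR called 1 of them higher in neuronal nuclei and 2 lower, against 11.8% and 13.5% of all genes tested (median log2 fold change -1.86). In agonist mice 0 were higher and 2 lower, against 6.67% and 6.97% (median -1.59). The sum therefore does not show that these cells were equally present in both populations. Counts of mitochondrially encoded genes took 1.77% to 6.11% of the neuronal libraries and 10.3% to 42.8% of the non-neuronal ones, with non-neuronal agonist libraries 1 and 2 at 42.8% and 33.3%. Cyp1a1, the classical AhR target, had no count in neuronal control libraries and stood at 5.80 ± 2.34 CPM in neuronal agonist libraries (SD, n = 4). In non-neuronal nuclei Cyp1a1 rose from 0.075 ± 0.15 CPM after corn oil to 87.0 ± 88.8 CPM after agonist (log2 fold change 9.62, edgeR adjusted p = 0.0396). It passed the filter on low counts through the agonist libraries only. Non-neuronal agonist libraries 1 and 2 had it at 11.7 and 8.57 CPM, and libraries 3 and 4 at 163 and 165 CPM. The part of the mitochondrial share in this split was not tested.

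**Figure D1:**
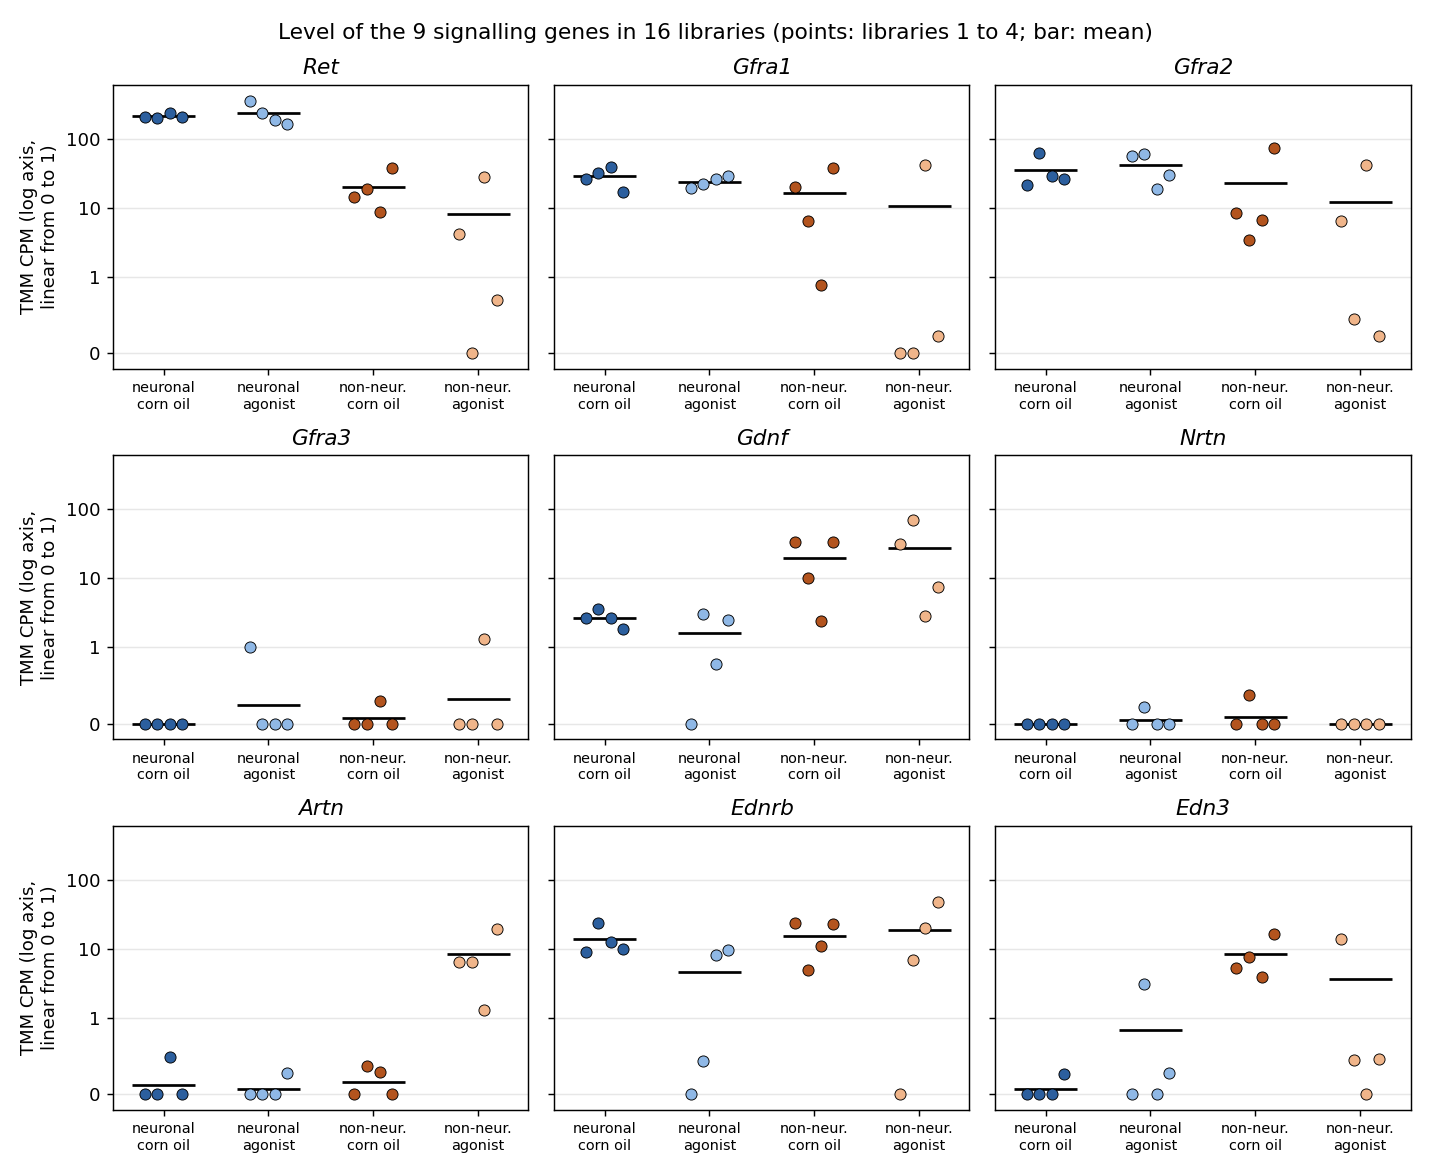
TMM-scaled CPM of each of the 9 genes (vertical axis, logarithmic above 1 and linear from 0 to 1) in the 4 groups, with 1 point per library and a bar at the group mean. The Ret points of the 8 neuronal libraries, from 161 to 351 CPM, lie above all non-neuronal points, while the points of Gfra1, Gfra2 and Ednrb overlap between populations.

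Ret, the signalling receptor, was the member with the highest level per length in neuronal nuclei. Ret (chr6:118151745-118197718, minus strand, GRCm38) stood at 203, 198, 238 and 204 CPM in neuronal control libraries 1 to 4 and at 351, 238, 186 and 161 CPM in the neuronal agonist libraries. In non-neuronal control libraries it stood at 14.5, 18.8, 8.67 and 37.5 CPM, and in non-neuronal agonist libraries at 4.16, 0, 27.7 and 0.694 CPM. Every neuronal library was above every non-neuronal library under both treatments, and the lowest neuronal value was 161 CPM against a highest non-neuronal value of 37.5 CPM. Of all genes with a count, 6.94% were higher in every neuronal library in corn oil mice and 5.66% in agonist mice.

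Gfra1, the co-receptor that GDNF prefers, did not separate the populations. Gfra1 (chr19:58235604-58455909, minus strand) stood at 26.4, 32.1, 38.7 and 16.7 CPM in neuronal control libraries and 19.2, 21.9, 26.0 and 28.3 CPM in neuronal agonist libraries. Non-neuronal control libraries had it at 19.8, 6.38, 0.897 and 37.8 CPM, and in non-neuronal agonist libraries at 0, 0, 41.6 and 0.23 CPM. The highest of the 16 values was thus that of non-neuronal agonist library 3, and the neuronal libraries lay closer together than the non-neuronal ones. Exons of Gfra1 overlap those of the antisense gene Gm16277, and since the strand setting of the counting is not given, reads of the 2 genes cannot be told apart.

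Gfra2, the co-receptor that neurturin prefers, showed a similar spread. Gfra2 (chr14:70890120-70979838, plus strand) stood at 21.2, 62.8, 29.2 and 26.1 CPM in neuronal control libraries and 55.2, 59.8, 18.9 and 29.97 CPM in neuronal agonist libraries. It stood at 8.28, 3.38, 6.58 and 73.3 CPM in non-neuronal control libraries and 6.42, 0.451, 41.1 and 0.23 CPM in non-neuronal agonist libraries. Non-neuronal control library 4 had the highest Gfra2 value of all 16 libraries, and the other 3 libraries of its group lay below every neuronal library.

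Gfra3, the artemin co-receptor (chromosome 18, positions 34689898 to 34720387, minus strand), was close to absent. It had 4 counts in neuronal agonist library 1, 5 in non-neuronal agonist library 3, 1 in non-neuronal control library 3 and 0 in the other 13 libraries. None of the 3 nonzero values exceeded 1.31 CPM, so a difference between groups was not detectable at this depth. The level of the further co-receptor gene Gfra4, whose product binds persephin, in corn oil mice was 5.22 ± 2.04 CPM in neuronal libraries and 2.74 ± 2.65 CPM in the others (SD, n = 4).

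Compared per length in neuronal control libraries, Ret stood at 31.1 ± 2.69 CPM per kilobase (SD, n = 4), Gfra2 at 9.85 ± 5.35, Gfra1 at 5.20 ± 1.70 and Ednrb at 3.21 ± 1.58. The range of Ret lay above that of Gfra2, while the ranges of Gfra2 and Gfra1, and of Gfra1 and Ednrb, overlapped. The ligand gene Gdnf followed at 0.728 ± 0.196 CPM per kilobase, below the range of Ednrb. In neuronal agonist libraries the first 4 places were the same, with Ret at 34.6 ± 12.5, Gfra2 at 11.6 ± 5.56, Gfra1 at 4.35 ± 0.747 and Ednrb at 1.07 ± 1.18 CPM per kilobase, and none of these neighbours overlapped. The order differed in non-neuronal libraries, where no receptor stood apart from the rest. With corn oil Gfra2 was at 6.46 ± 9.51, Gdnf at 5.42 ± 4.37, Ednrb at 3.62 ± 2.14, Gfra1 at 2.96 ± 3.00, Ret at 2.94 ± 1.85 and Edn3 at 2.02 ± 1.39 CPM per kilobase, and each of these ranges overlapped the next. With agonist Gdnf was at 7.56 ± 8.25 and Artn at 3.48 ± 3.23 CPM per kilobase, and again all neighbouring ranges overlapped.

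The comparison of the populations asks where the receptors and ligands are transcribed. In corn oil mice 5 of the 9 genes passed the filter on low counts, and 2 were called at an adjusted p under 0.05 by edgeR's quasi-likelihood test with Benjamini-Hochberg adjustment: 1 higher in neuronal nuclei, where 11.8% of all tested genes were called higher, and 1 lower, where 13.5% were. Ret was higher in neuronal nuclei, by a log2 fold change of 3.48 (SE 0.41, adjusted p = 6.08e-05), which is 11.2-fold. Gdnf was lower in neuronal nuclei, by a log2 fold change of -2.80 (SE 0.83, adjusted p = 0.0236), although the groups overlapped in 1 non-neuronal library. Gfra1 differed by a log2 fold change of 0.88 (SE 0.78, adjusted p = 0.460), Gfra2 by 0.67 (SE 0.81, adjusted p = 0.602) and Ednrb by -0.09 (SE 0.63, adjusted p = 0.938), so none of the 3 passed. The median log2 fold change of all tested genes was -0.11. Without non-neuronal control library 4, Gfra2 had a log2 fold change of 2.62 (adjusted p = 0.00489) and passed. In sorted nuclei measured in bulk, fewer nuclei of a type and less RNA per nucleus cannot be told apart.

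Gdnf lost its call in 8 of 15 alternatives, 6 of them with 1 library left out. Its direction was kept, and its log2 fold change ranged from -3.12 to -2.39 over the libraries left out and was -2.28 with the block. The adjusted p of Gdnf was 0.0896 with all 4 groups in 1 fit, 0.117 with a block for the replicate number, 0.0675, 0.0521, 0.0615 and 0.0742 without neuronal control library 1, 2, 3 or 4, and 0.066 and 0.057 without non-neuronal control library 1 or 4. By contrast, Ret kept its call in all 15 in corn oil mice. It also did so in all 16 in agonist mice, where it passed the filter of the main fit through its neuronal counts.

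In agonist mice 5 of the 9 genes were again tested, and only Ret was called, where 6.67% of tested genes were called higher in neuronal nuclei and 6.97% lower. Ret was higher by a log2 fold change of 4.84 (SE 1.07, adjusted p = 0.00744). With 11, 0, 106 and 3 counts in the non-neuronal libraries, Ret passed the filter through its neuronal counts, so this call adds no support of its own. Gdnf stood at -4.12 (SE 1.39, adjusted p = 0.0639), Gfra1 at 1.23 (SE 1.49, adjusted p = 0.674), Gfra2 at 1.79 (SE 1.21, adjusted p = 0.394) and Ednrb at -2.04 (SE 1.56, adjusted p = 0.467). The value of Gfra1 turned on non-neuronal agonist library 3, the library of its group with the highest Ret, Gfra1 and Gfra2 levels. Without it the log2 fold change of Gfra1 was 7.46 (adjusted p = 0.00658). Gfra1 then had 0, 0 and 1 counts in the non-neuronal libraries and passed the filter through its neuronal counts, so this call adds no support. The log2 fold change of Gdnf without that library was -4.53 (adjusted p = 0.0391). Gdnf also passed with DESeq2 (adjusted p = 0.00277) and with all 4 groups in 1 fit (adjusted p = 0.0148).

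**Figure D2:**
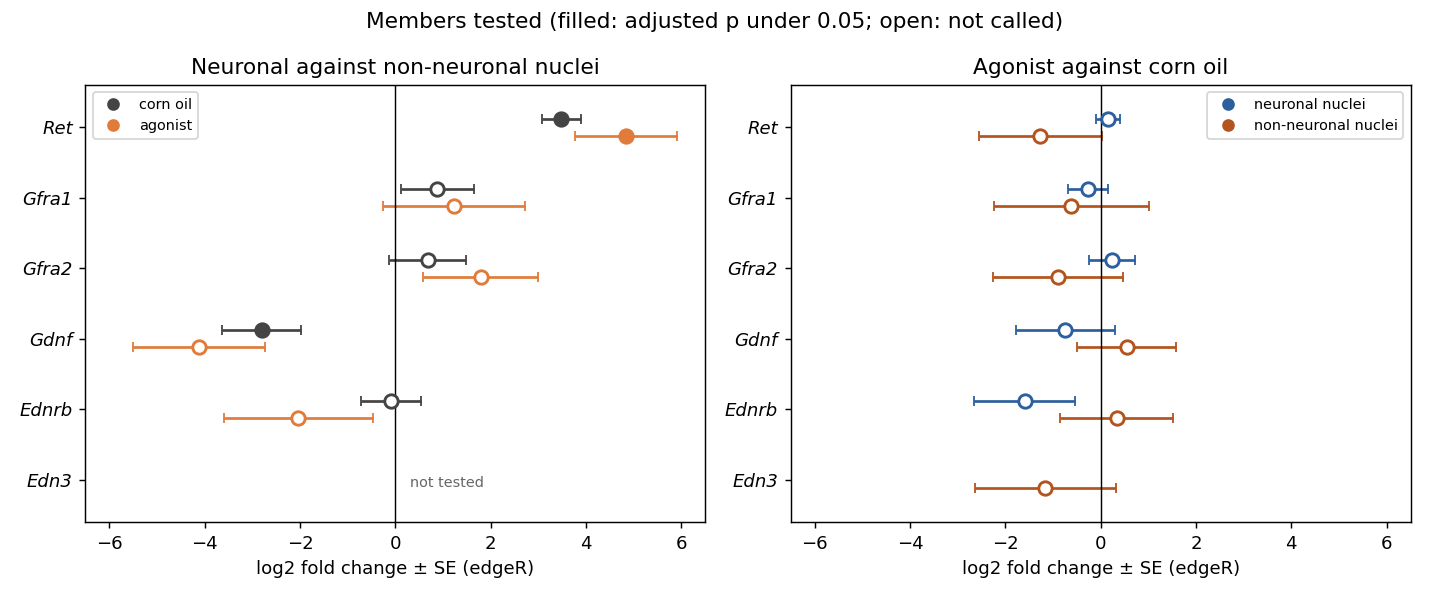
Log2 fold changes with their SE (horizontal axis) of the members tested by edgeR, neuronal against non-neuronal nuclei on the left and agonist against corn oil on the right, with filled points for adjusted p under 0.05. Filled points are Ret under both treatments (3.48 and 4.84) and Gdnf in corn oil mice (-2.80), and no point on the right is filled. Edn3 was tested only for the agonist response in non-neuronal nuclei, and Gfra3, Nrtn and Artn in none of these comparisons.

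Neuron markers were present in the non-neuronal libraries, and the receptor levels were set against them. Ret amounted to 4.93% to 7.10% of the summed level of the 10 neuron markers in the 8 neuronal libraries. In the 8 non-neuronal libraries it amounted to 0% to 11.8%, with 2 libraries above the neuronal range, 2 within it and 4 below. Gfra1 amounted to 0.355% to 1.16% in neuronal libraries and up to 9.80% in non-neuronal libraries, of which 4 were above the neuronal range, 1 within it and 3 below. Gfra2 amounted to 0.547% to 1.74% in neuronal libraries and up to 14.6% in non-neuronal ones, of which 6 were above the neuronal range and 2 below. The co-receptors therefore stood, relative to neuron markers, above their neuronal range in more of the non-neuronal libraries than Ret did. This measure was chosen after the levels were seen and has no test. The 9 glia markers other than Gfra3 summed to 10.3 to 40.2 CPM in neuronal and 138 to 322 CPM in non-neuronal libraries. Sox10, the glial transcription factor, was at 0 in 4 of the 8 neuronal libraries and in 1 of the 8 non-neuronal ones. The part of neurons without the tag, or of glia, in the non-neuronal co-receptor counts was not tested.

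**Figure D3:**
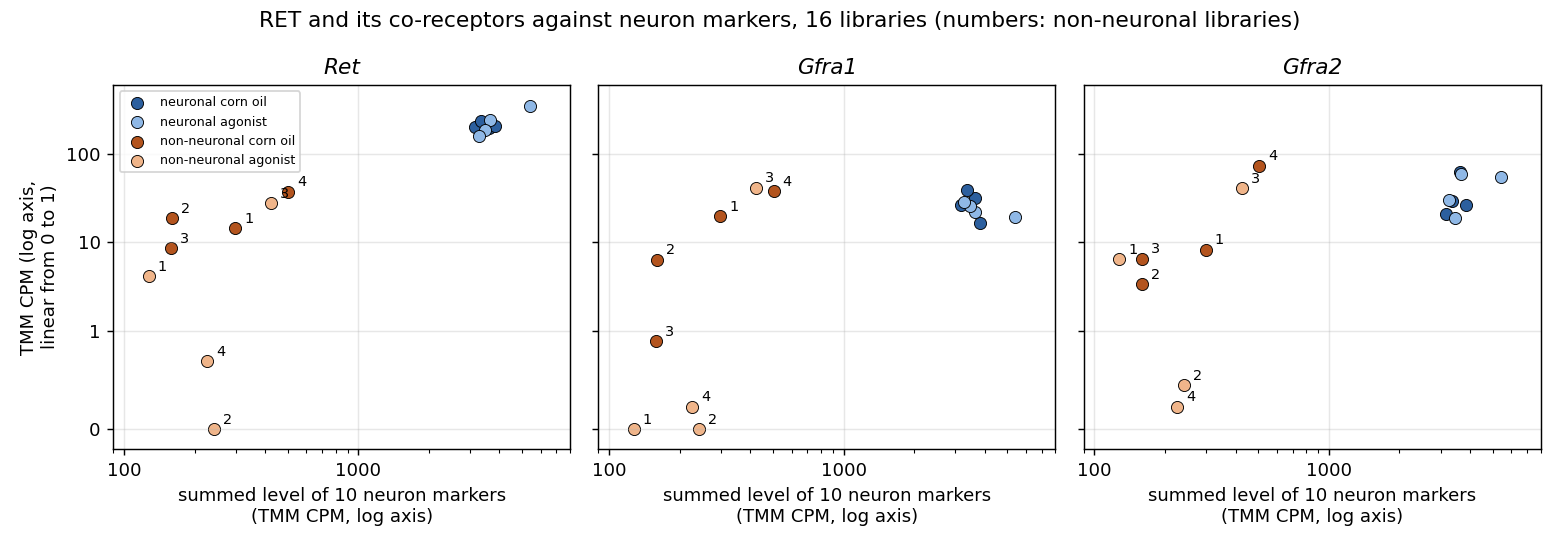
Level of Ret, Gfra1 and Gfra2 (vertical axis, TMM CPM, logarithmic above 1) against the summed level of 10 neuron markers (horizontal axis, TMM CPM, logarithmic) in the 16 libraries, with the non-neuronal libraries numbered. Neuronal libraries form 1 cloud at 3158 to 5402 CPM of markers, and non-neuronal control library 4 and non-neuronal agonist library 3 carry the highest marker sums of their groups (502 and 424 CPM) and the highest levels of Ret, Gfra1 and Gfra2.

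Gdnf, the ligand of the GFRα1 complex, had 278 and 280 counts in the non-neuronal control and agonist groups and 42 and 26 in the neuronal ones. Gdnf (chr15:7810846-7837575, plus strand) stood at 33.4, 10.1, 2.39 and 33.7 CPM in non-neuronal control libraries and 31.7, 69.0, 2.88 and 7.41 CPM in non-neuronal agonist libraries. In neuronal control libraries it stood at 2.62, 3.59, 2.66 and 1.83 CPM, and in neuronal agonist libraries at 0, 3.06, 0.779 and 2.50 CPM. Levels in neuronal libraries never exceeded 3.59 CPM, whereas the non-neuronal libraries ranged over more than 1 order of magnitude within each group. Smooth muscle markers, 8 genes, summed to 212 to 884 CPM in neuronal and 3177 to 12887 CPM in non-neuronal libraries, and the part of each non-neuronal cell type in the Gdnf counts was not tested.

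Nrtn, which encodes neurturin (chr17:56751325-56757530, minus strand), had 1 count in neuronal agonist library 2, 1 in non-neuronal control library 2 and 0 in the other 14 libraries. The gene was not tested in any comparison and was at the limit of detection in both populations. Its co-receptor gene Gfra2 had 547 to 673 counts per neuronal group, so the receptor and the ligand differed in how far they could be measured here. Pspn, which encodes persephin, had 1 count in each of the neuronal groups and none in non-neuronal libraries.

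Artn, which encodes artemin (chr4:117926162-117929763, minus strand), was found almost only in non-neuronal agonist libraries. It had 17, 14, 5 and 84 counts there, or 6.42, 6.32, 1.31 and 19.4 CPM. Non-neuronal control libraries had 0, 1, 1 and 0 counts, neuronal control libraries had 2 counts in 1 library, and neuronal agonist libraries had 1 count in 1 library. All 4 non-neuronal agonist libraries were therefore above the other 12. In agonist mice the 120 non-neuronal counts against 1 neuronal count gave a ratio of 148, with an exact 95% counting interval of 26.0 to 5875. This and the intervals of the other count ratios cover counting error only, pool the 4 libraries of a group and leave out the larger spread between libraries. For Artn a two-sided exact permutation test gave p = 0.0286, the smallest that 4 against 4 libraries allow. Artn was 1 of 9 members lower in every neuronal than in every non-neuronal library of agonist mice, as were 5.51% of all genes with a count. In a fit with no filter on low counts, the log2 fold change between the populations was -6.33 (SE 2.42, edgeR adjusted p = 0.0775), where 6.01% of genes were called lower.

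Edn3, which encodes endothelin-3 (chr2:174760619-174784042, plus strand), was found in all 4 non-neuronal control libraries. It stood at 5.33, 7.51, 3.89 and 16.6 CPM there, and at 13.6, 0.451, 0 and 0.463 CPM in non-neuronal agonist libraries. In neuronal control libraries it had 1 count in library 4 and none elsewhere, and neuronal agonist libraries had 0, 14, 0 and 1 counts. The corn oil groups did not overlap: 115 non-neuronal counts against 1 neuronal count gave a ratio of 136, with an exact 95% counting interval of 23.9 to 5421, and the two-sided exact permutation test gave p = 0.0286. Of all genes with a count in corn oil mice, 8.32% were lower in every neuronal than in every non-neuronal library. Edn3 did not pass the filter in that comparison. With no filter its log2 fold change was -6.26 (SE 1.72, edgeR adjusted p = 0.00361), where 8.74% of genes were called lower. Where Edn3 passed the filter in an alternative, it did so through its non-neuronal counts, so its calls there add no support. In agonist mice the groups overlapped, with 39 non-neuronal and 15 neuronal counts, of which 36 and 14 came from 1 library each, and the exact permutation p was 0.543. A total of 15 such permutation tests were run on members that the filter left out, and their p-values are not adjusted.

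Ednrb, the receptor of endothelin-3, had overlapping levels in both populations. Ednrb (chr14:103814625-103844402, minus strand) stood at 8.90, 23.6, 12.3 and 9.94 CPM in neuronal control libraries and 23.4, 4.88, 10.8 and 22.8 CPM in non-neuronal control libraries. The log2 fold change of -0.09 with its SE of 0.63 gives no direction, and with library size as the only scaling it was 0.089. In neuronal agonist libraries Ednrb stood at 0, 0.438, 8.05 and 9.71 CPM, and in non-neuronal agonist libraries at 0, 6.77, 20.1 and 47.9 CPM. Library 1 of both agonist groups thus had no Ednrb count. The ligand and its receptor differed in corn oil mice in that Edn3 did not overlap between populations and Ednrb did.

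The agonist comparisons ask whether AhR activation changed the transcripts 14 hours later. In neuronal nuclei 5 members were tested and 0 were called by edgeR, as were 0% of all 14182 genes tested. None of the 5 had an unadjusted p under 0.05, and DESeq2 called none. The log2 fold change of agonist against corn oil was 0.15 for Ret (SE 0.25), -0.26 for Gfra1 (SE 0.42), 0.24 for Gfra2 (SE 0.48) and -0.74 for Gdnf (SE 1.04). Ednrb had the largest of the 5, at -1.59 (SE 1.06, edgeR adjusted p = 0.910), with a mean of 4.55 ± 5.05 CPM after agonist and 13.7 ± 6.76 CPM after corn oil (SD, n = 4). Its 2 groups overlapped, since agonist library 4 at 9.71 CPM was above corn oil library 1 at 8.90 CPM.

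In non-neuronal nuclei 6 members were tested and 0 were called by edgeR, where 0.0135% of all 14846 genes tested were. None of the 6 had an unadjusted p under 0.05, and DESeq2 called none. The log2 fold changes were -1.27 for Ret (SE 1.29), -0.61 for Gfra1 (SE 1.62), -0.90 for Gfra2 (SE 1.36), 0.54 for Gdnf (SE 1.05), 0.34 for Ednrb (SE 1.19) and -1.16 for Edn3 (SE 1.48). Each SE, which is derived from the same F-test as the p-value, was larger than the size of its log2 fold change. For Gdnf the 2 highest agonist values belonged to libraries 1 and 2, with 42.8% and 33.3% mitochondrial counts, and without these 2 libraries its log2 fold change was -1.94. The part of the mitochondrial share in the Gdnf levels was not tested. Edn3 lay below the corn oil range of 3.89 to 16.6 CPM in 3 of 4 agonist libraries and within it, at 13.6 CPM, in library 1.

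Artn was the member whose non-neuronal groups did not overlap. It stood at 8.37 ± 7.76 CPM after agonist and 0.169 ± 0.197 CPM after corn oil (SD, n = 4), and 120 against 2 counts gave a ratio of 61.1, with an exact 95% interval of 16.6 to 511 for counting error only, while the 4 agonist libraries ranged from 5 to 84 counts. The two-sided exact permutation test gave p = 0.0286, the smallest possible. A share of 0.506% of all genes with a count were higher in every agonist than in every corn oil library of non-neuronal nuclei. Artn did not pass the count filter. In the fit with no filter its log2 fold change was 5.43 (SE 2.34, unadjusted p = 0.0205, edgeR adjusted p = 0.40), so it was not called across all genes, where 0.164% were called higher. Libraries 3 and 4, with 21.8% and 10.3% mitochondrial counts, held 1.31 and 19.4 CPM, and the 2 libraries above 30% held 6.42 and 6.32 CPM. Among marker sums, the 4 mesothelium markers ranged from 2.65 to 122 CPM in the agonist and 3.55 to 11.6 CPM in the corn oil libraries, and the 7 epithelium markers from 1026 to 5737 and 1518 to 14350 CPM. The part of the makeup of the libraries in the Artn counts was not tested.

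**Figure D4:**
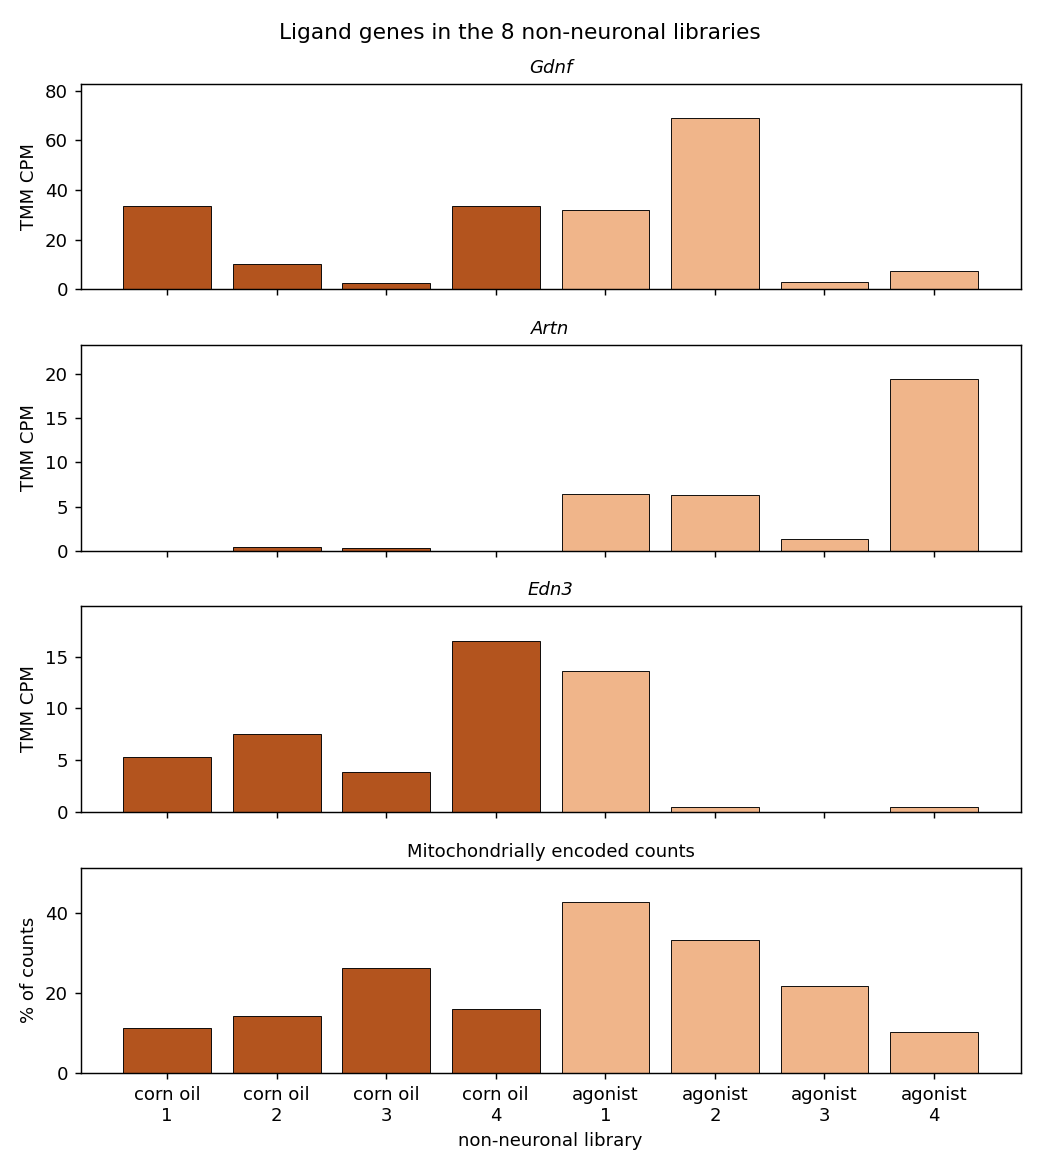
Levels of the ligand genes Gdnf, Artn and Edn3 (TMM CPM, bars from 0) in the 8 non-neuronal libraries, 4 after corn oil and 4 after agonist, above the share of mitochondrially encoded counts in the same libraries. Artn is at 1.31 to 19.4 CPM in the agonist libraries and at most 0.375 CPM in the corn oil libraries, while Gdnf and Edn3 overlap between treatments.

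The difference between the populations in their agonist response was fitted over all 16 libraries. Of the 9 members 6 were tested and 0 were called by edgeR, as were 0% of all 18566 genes tested, with none at an unadjusted p under 0.05 and none called by DESeq2. The largest was Edn3, whose log2 response was higher in neuronal than in non-neuronal nuclei by 4.36 (SE 2.36, unadjusted p = 0.0772, edgeR adjusted p = 0.666). That value rests on few counts, since 14 of the 15 neuronal agonist counts came from library 2. The difference was 1.41 for Ret (SE 1.13, edgeR adjusted p = 0.818), 0.37 for Gfra1, 1.15 for Gfra2, -1.21 for Gdnf and -1.87 for Ednrb.

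AhR with its partner ARNT binds DNA at the core GCGTG, and the sequence before the start of a gene shows whether these letters are present. RefSeq promoter windows (GRCm38.p6) were at hand for 6 of the 9 members, 7 windows in all, and not for Ret, Gfra2 and Gfra3. The core, read on either strand, occurred in 3 of the 7 windows of 300 bases (42.9%), those of Nrtn, Ednrb and the first Gdnf start, against 32.4% of all 32851 windows. The longer form TNGCGTG occurred in 5.1% of all windows and, among members, in Ednrb only, where it overlaps a core past the start and outside the bases printed here. The 250 bases before 1 RefSeq start are printed for Artn, the member with non-overlapping agonist groups, and for comparison Gdnf (its first start) and Ednrb. Capitals mark the core on either strand. These stretches lie at chr4:117929764-117930013 (minus strand), chr15:7809798-7810047 (plus strand) and chr14:103843702-103843951 (minus strand). Other starts are annotated for Artn and Ednrb. The Ednrb stretch lies within the gene bounds given above, and the Gdnf stretch ends some way before them.
Artn: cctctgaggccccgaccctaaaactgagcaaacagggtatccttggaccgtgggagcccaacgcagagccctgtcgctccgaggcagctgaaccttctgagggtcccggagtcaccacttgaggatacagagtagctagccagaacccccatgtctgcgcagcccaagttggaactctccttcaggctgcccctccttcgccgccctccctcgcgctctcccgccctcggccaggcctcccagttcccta
Gdnf: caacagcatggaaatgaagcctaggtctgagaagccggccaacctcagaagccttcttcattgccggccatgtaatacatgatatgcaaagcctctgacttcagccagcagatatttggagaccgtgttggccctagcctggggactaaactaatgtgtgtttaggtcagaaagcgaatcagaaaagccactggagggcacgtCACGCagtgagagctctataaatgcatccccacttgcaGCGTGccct
Ednrb: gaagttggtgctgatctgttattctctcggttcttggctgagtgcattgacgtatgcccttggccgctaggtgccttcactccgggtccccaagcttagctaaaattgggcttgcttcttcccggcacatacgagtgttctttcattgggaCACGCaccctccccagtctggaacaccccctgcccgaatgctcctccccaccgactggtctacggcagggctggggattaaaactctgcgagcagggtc
The Artn stretch holds no core, that of Gdnf holds 2 and that of Ednrb holds 1. The window of the second Gdnf start, not printed, holds no core. Of these 3 genes, Artn alone had non-neuronal agonist and corn oil groups that did not overlap. A match describes the letters, no binding was measured, and the lack of a match says only that these letters are not in this window.

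Other genes of the 2 pathways were taken from 6 lists, with 122 genes in the table. Among 102 tested in corn oil mice, 18 were higher in neuronal nuclei and 16 were lower, where 11.8% and 13.5% of all genes tested were called (median log2 fold change -0.24, against -0.11 over all genes tested). Among 100 tested in agonist mice, 11 were higher and 9 lower, where 6.67% and 6.97% of all genes were (median -0.26, against -0.15). The counts of the single lists are small and are to be read against these shares. Where a listed gene was near 0 in 1 population, it passed the filter through the other, so its call adds no support. Of the other RET ligands and receptors, 1 of 3 tested was called in corn oil mice and 1 of 2 tested in agonist mice. Both calls were of Ncam1, an adhesion molecule that can bind GDNF with GFRα1. It was higher in neuronal nuclei by 1.76 (SE 0.48, edgeR adjusted p = 0.0152) in corn oil mice and by 3.67 (SE 0.65, edgeR adjusted p = 0.00184) in agonist mice. The syndecan Sdc3 (-0.31, SE 0.56) and Gfra4 (1.00, SE 0.96) did not pass in corn oil mice. Gfral, the receptor of GDF15, had 17 counts in neuronal control and 13 in non-neuronal control libraries and was not tested.

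Genes that carry the RET signal were called in both directions. In corn oil mice 6 of 38 were higher in neuronal nuclei and 3 lower, against 11.8% and 13.5% of all genes, with a median log2 fold change of -0.07. Higher were the adaptors Shc2 (4.01) and Dok5 (5.06) and the kinase Braf (0.97), and lower were the adaptors Gab1 (-2.70) and Irs2 (-1.37) and the RET-binding protein gene Pdlim7 (-1.65). In agonist mice, where 6.67% of all genes were called higher and 6.97% lower, 2 of 39 were higher, Shc3 (5.90) and Shc2 (2.83). Lower were 2, Stat3 (-2.19) and Irs2 (-2.27). Of 17 feedback and target genes tested in corn oil mice, 2 were higher, the transcription factor Etv1 (1.75) and the RAP1 regulator Rap1gap2 (1.86), and 2 lower, the phosphatase Dusp6 (-2.19) and the adaptor Cd2ap (-0.73). In agonist mice, against the same shares of 6.67% and 6.97%, 1 of 16 was higher, Kif26a (5.74), a kinesin-like protein that restrains RET signalling, and 1 lower, Dusp6 (-4.09).

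Of the other endothelin genes, 4 were tested in corn oil mice, with 1 higher and 1 lower in neuronal nuclei, against 11.8% and 13.5% of all genes. In agonist mice 3 were tested, with 1 higher and 0 lower, against 6.67% and 6.97% of all genes. Ece2, which encodes an endothelin-converting enzyme, was higher in neuronal nuclei by a log2 fold change of 4.47 (SE 0.41, edgeR adjusted p = 1.2e-05) in corn oil mice and 4.99 (SE 0.86, edgeR adjusted p = 0.0015) in agonist mice. Its level in corn oil mice was 105 ± 30.5 CPM (SD, n = 4) in neuronal libraries and 4.97 ± 1.84 CPM in the others. Ece1, the other converting enzyme, stood at -1.06 (SE 0.45, edgeR adjusted p = 0.105). Edn1, the ligand that acts on both endothelin receptors, was lower in neuronal nuclei of corn oil mice by a log2 fold change of -5.02 (SE 1.08, edgeR adjusted p = 0.00366). It had 0, 0, 3 and 4 counts in neuronal control libraries and 86, 27, 78 and 29 in non-neuronal control libraries. Edn1 thus passed the filter through its non-neuronal counts, so the call adds no support. It was not tested in agonist mice, with 0, 0, 0 and 1 counts in neuronal and 4, 190, 91 and 128 in non-neuronal agonist libraries. Ednra, the other receptor, stood at -2.40 (SE 0.85, edgeR adjusted p = 0.0529) in corn oil and -3.86 (SE 1.35, edgeR adjusted p = 0.0754) in agonist mice. Edn2, Ecel1 and Kel had 0 to 15 counts per group. Mme, which encodes the endothelin-degrading protease neprilysin, stood at 3178 CPM in 1 non-neuronal agonist library, with a mean of 1.67 ± 1.13 CPM in non-neuronal control libraries.

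Of 22 genes that carry the EDNRB signal, 2 were higher and 6 lower in neuronal nuclei of corn oil mice, against 11.8% and 13.5% of all genes, with a median log2 fold change of -0.32. Higher were Rgs4 (2.52), a brake on G protein signalling, and the kinase Prkce (1.29), and the lower ones with the smallest p were the calcium release channel Itpr3 (-5.25), Rgs5 (-3.36), the phospholipase Plcb4 (-1.06) and the kinase Prkca (-1.13). In agonist mice 0 of 22 were higher and 4 lower, against 6.67% and 6.97% of all genes: Rgs5 (-3.28), the G protein subunit Gna13 (-2.33), Prkca (-1.77) and Itpr2 (-1.87).

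Of 18 regulators of enteric nervous system development tested in corn oil mice, 6 were higher in neuronal nuclei and 4 lower, against 11.8% and 13.5% of all genes, with a median log2 fold change of 0.45. Higher were the growth factors Nrg1 (4.41) and Nrg3 (3.30), the adhesion molecule L1cam (1.57) and the transcription factor Tcf4 (1.62). Lower were the receptor kinases Erbb2 (-7.12) and Erbb3 (-4.96), the guidance factor Sema3c (-3.65) and Sox10 (-4.09), a transcription factor of enteric precursors and glia. In agonist mice, where 6.67% of all genes were called higher and 6.97% lower, 6 of 18 were higher, among them the neuronal transcription factor Tlx2 (7.69) with L1cam (3.31) and Tcf4 (1.77), and 2 lower, Erbb2 (-6.89) and Erbb3 (-4.70).

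None of these pathway genes was called in an agonist comparison by edgeR. Of 97 tested in neuronal nuclei 6 had an unadjusted p under 0.05 (6.19%, against 5.01% of all genes tested), of 100 tested in non-neuronal nuclei 2 had (2%, against 4.82%), and of 109 tested for the difference of the responses 7 had (6.42%, against 7.99%). DESeq2 called none in either population and 1 for the difference. Of the genes of the AhR response, Cyp1a1 was called in non-neuronal nuclei, and the AhR repressor gene Ahrr had a log2 fold change of 2.81 in neuronal nuclei (SE 0.51, edgeR unadjusted p = 0.000121, adjusted p = 0.574). Neuronal libraries had Ahrr at 54.4, 55.6, 55.8 and 63.3 CPM after agonist and 7.59, 7.70, 2.42 and 14.9 CPM after corn oil. In non-neuronal nuclei Ahrr overlapped between treatments, at 9.82, 4.51, 13.3 and 0.694 CPM after agonist and 19.5, 2.63, 17.3 and 13.2 CPM after corn oil.

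Genes with a pattern across the 16 libraries like that of Ret or Ednrb were ranked by the root mean square difference of their log2 CPM, each gene centred on its mean, among 18565 genes. For Ret the nearest were the noncoding RNA Mirg (0.60), Elavl4 (0.65), the microtubule protein gene Map6 (0.68), Gm36952 (0.72) and the synaptic scaffold gene Caskin1 (0.74), where the median over all genes was 3.04. For Ednrb the nearest were Gm44270 (0.98), 1110059G10Rik (0.99), Gm36936 (1.03), Tmem43 (1.03), a nuclear membrane protein gene, and the splicing factor gene Snrpa1 (1.08), against a median of 2.27. The genes nearest to Ret were closer to it than those nearest to Ednrb were to Ednrb. With library size as the only scaling, 4 of the 5 genes named for Ret and 5 of the 5 for Ednrb were again among the nearest 5. The libraries share 2 sorted populations, so a like pattern describes levels over these libraries only.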

How the data were processed

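Nuclear RNA was amplified (Ovation RNA-Seq System V2) and read as 75 bp single ends on a HiSeq4000, per the labels' protocols. The deposited table holds the authors' expected counts (estimated counts per gene) for 51912 Ensembl identifiers in 16 libraries. RSEM 1.3.0, STAR 2.5.2, DESeq2 1.10.1 and the build GRCm38 are named, per the submitters' processing notes. No source used here names the annotation or the strand setting. The column headers carry a project name about AhR knockout mice, which the sources used here do not explain, and groups follow the labels. Between 89.2% and 94.3% of values per library were whole.

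Expected counts were rounded. Symbols, lengths and positions came from GENCODE M21 (51633 identifiers matched, 279 did not), and promoters from RefSeq. Each comparison was fitted in edgeR 4.0.16 (R 4.3.3) with TMM scaling, filterByExpr by group (minimum count 10, minimum total count 15) and a two-sided robust quasi-likelihood F-test, over the 8 libraries compared or, for the difference of responses, over 16. Genes were called where p, adjusted by Benjamini-Hochberg over all genes tested, was under 0.05. Members that the filter left out were compared by exact permutation tests of their CPM. Alternatives were DESeq2 1.42.0, other scalings, no filter, mitochondrial genes or libraries above 30% mitochondrial counts left out, all 4 groups in 1 fit, a replicate block, and each library left out in turn. The text names all members, all genes of the 2 ligand and receptor lists, and up to 4 called genes with the smallest adjusted p per direction of each other list, except that 2 genes are not reported here. Members and lists were chosen with earlier results of these data known. Spry3 of the lists was not in the table, and Kifbp was matched as Kif1bp.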

Additional observations from a re-analysis of the deposited data

Results flagged for a closer look

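A library stood apart from the 3 others of its group in 15 of 33 groups of member levels that had any spread (Dixon's test, critical value 0.829), where chance flags about 1 in 20 groups of normally distributed values. In 8 of the 15 groups 3 libraries were at 0, which sets the gap to the whole range, so that rate does not apply to them. Of the 15 flagged libraries, 9 had 1 to 14 counts beside 3 libraries at 0 or 1 count. Gfra3 stood at 1.01 CPM in neuronal agonist library 1, 1.31 CPM in non-neuronal agonist library 3 and 0.299 CPM in non-neuronal control library 3, with 0 in the other libraries of those groups. Nrtn stood at 0.219 CPM in neuronal agonist library 2 and 0.375 CPM in non-neuronal control library 2. Artn stood at 0.278 CPM in neuronal agonist library 4 and 0.483 CPM in neuronal control library 3. Edn3 stood at 0.261 CPM in neuronal control library 4 and at 3.06 CPM in neuronal agonist library 2, where the next library had 0.278 CPM.

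Non-neuronal agonist library 3 was the highest of its group for 3 receptors: Ret at 27.7 CPM (next 4.16), Gfra1 at 41.6 CPM (next 0.23) and Gfra2 at 41.1 CPM (next 6.42). It also had the highest sum of neuron markers of its group, 424 CPM against 127 to 242 CPM. Non-neuronal control library 4 had Gfra2 at 73.3 CPM (next 8.28) and the highest neuron marker sum of its group, 502 CPM. The part of neuronal RNA in these values was not tested. Edn3 stood at 13.6 CPM in non-neuronal agonist library 1 (next 0.463), the library with 42.8% mitochondrial counts. Ret stood at 238 CPM in neuronal control library 3, where the next was 204 CPM.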

How the results depend on the processing

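Of the member genes called, Ret kept its call in all 31 alternatives of the population comparisons. In agonist mice Ret passed the filter of the main fit through its neuronal counts, so its calls there add no support of their own. In corn oil mice 2 members were called (Ret and Gdnf), 1 with a replicate block, and 1 to 3 when each library was left out. These counts do not stand for the same genes, since Gdnf lost its call in 8 of 15 alternatives. Gfra2 was called without non-neuronal control library 4, and Edn3 with no filter. In agonist mice 1 was called, 2 with DESeq2 and with all 4 groups in 1 fit (Gdnf and Ret), and 1 to 4 when each library was left out. Artn was among these calls without neuronal agonist library 1 or 4 or without non-neuronal agonist library 3. It passed the filter there through its non-neuronal counts, so these calls add no support. Gfra1 was among them without non-neuronal agonist library 3 and passed through its neuronal counts, so that call adds none either. No member was called in an agonist response or in the difference of responses under any alternative run. Genes called in corn oil mice numbered 3876, and 3399 to 4735 when each library was left out. In agonist mice they numbered 1918, 3324 with no filter, 2953 with DESeq2, 4590 with all 4 groups in 1 fit, and 1553 to 2064 when each library was left out. The neuronal agonist response had 0 calls, 152 with no filter and 9 with DESeq2. The non-neuronal response had 2 calls, 88 with no filter, 35 with DESeq2, 11 with all 4 groups in 1 fit, 0 with library size only, 1 without the libraries above 30% mitochondrial counts, and 0 to 2 when each library was left out. The difference had 0 calls, 110 with no filter, 103 with DESeq2, 7 without those libraries, and 0 to 9 when each library was left out. The cause was not tested.

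Signs turned only for members that were not called. Scaling by library size alone gave a log2 fold change of 0.089 for Ednrb in corn oil mice, -0.011 for Ret in the neuronal response and -0.22 for Gdnf in the non-neuronal response. Without the libraries above 30% mitochondrial counts, the non-neuronal response was 0.35 for Gfra1 and -1.94 for Gdnf, and the difference was -0.64 for Gfra1 and 1.22 for Gdnf. When each library was left out, Ednrb in corn oil mice ranged from -0.43 to 0.19. The neuronal response ranged from -0.11 to 0.29 for Ret and from -0.0077 to 0.68 for Gfra2. The non-neuronal response ranged from -6.90 to 0.24 for Gfra1, -3.26 to 1.02 for Gfra2, -0.46 to 0.92 for Gdnf and -0.73 to 0.71 for Ednrb, and the difference from -0.56 to 6.55 for Gfra1 and -0.83 to 3.46 for Gfra2.

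Same-numbered libraries did not deviate together (correlations from -0.11 to 0.198). This cannot exclude a pairing by number, since different populations of the same mouse need not deviate together. With a replicate block, Gdnf in corn oil mice had a log2 fold change of -2.28 and Ednrb in the non-neuronal response -0.14. Library size only moved the median log2 fold change of all genes from -0.11 to 0.11 in corn oil and from -0.15 to 0.43 in agonist mice, and from 0.13 to -0.28 in the non-neuronal response. Members with under 3 counts in a library cannot be told from absent there.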
